A study of Mus musculus with 2 samples.

Results

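Basophils of colitis-associated tumors were the cells to which the deposited annotation gives the cell type Basophil. There were 88 of them among 38883 cells, 48 of 20312 in the library labelled Mir34a_F/F and 40 of 18571 in the library labelled Mir34a_Mye_KO. This was 0.236% (exact binomial interval 0.174 to 0.313) and 0.215% (0.154 to 0.293) of the cells, and the intervals overlap. All intervals are 95% intervals and cover counting error only, not the variation between cells or between mice.

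The study compared single-cell transcriptomes of colon tumors from mice with floxed *Mir34a* alleles (Mir34a_F/F) and from mice that in addition carry LysM-Cre and so lose *Mir34a* in myeloid cells (Mir34a_Mye_KO). Mice of both genotypes were 6 to 10 weeks old at the start, received 3 periods of dextran sodium sulfate (DSS) in the drinking water, at 2.5% and in the last period at 2%, which injures the epithelium and causes colitis, and 10 mg/kg azoxymethane (AOM), a colon carcinogen, before each of the earlier 2 periods. Tumors were taken on day 110. For each genotype 6 to 8 tumors of 3 mice were combined into 1 library, so that the genotypes could not be compared over mice and no p-value was computed. LysM-Cre is driven by the *Lyz2* promoter, which is active in macrophages and neutrophils. Whether it recombines in basophils was not measured here, since the 6 features of the count table that carry the names of Cre and of stretches of *Mir34a* had 0 UMIs in the basophils of both libraries. The limit for a count of 0 was set at 3 UMIs, which is a level of 0.154 and 0.0667. A UMI (unique molecular identifier) stands for 1 captured mRNA molecule. The level of an mRNA is its UMIs summed over the cells of a type in a library per 10000 summed UMIs of these cells. Levels depend on how well an mRNA is captured, so they were compared for 1 mRNA between cells and not between mRNAs. Unless stated otherwise, a pair of values gives Mir34a_F/F first and Mir34a_Mye_KO second.

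Basophils are rare granulocytes of the blood that mature in the bone marrow under interleukin-3 and enter tissue in allergy, in helminth infection and in inflammation. Like mast cells, which are tissue-resident and depend on the receptor Kit, they bind immunoglobulin E (IgE) through a high-affinity receptor of 3 kinds of chain, store histamine and granule proteases, and release type 2 cytokines on activation. The granule contents differ between the cells: mouse basophils are recognised by the proteases encoded by *Mcpt8* and *Prss34*, and mucosal mast cells by those encoded by *Mcpt1* and *Mcpt2*.

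The label was first compared with its markers. *Mcpt8*, the protease that defines mouse basophils, had at least 1 UMI in 25 of 48 and in 17 of 40 annotated basophils, whereas it was found in 0.689% and 0.831% of epithelial cells and in 0.389% and 0.680% of T cells, which should lack it. Median depth was 3673 (1303 to 10918) and 9302.5 (1661 to 39053) UMIs in basophils, 5315.5 and 6623 in epithelial cells and 3548 and 8043 in T cells. In 5 and 6 basophils at least 10% of UMIs were mitochondrial. The other markers given with the cell type were *Fcer1a*, the IgE-binding chain, *Il4* and *Csf1*. Over all annotated basophils, *Mcpt8* (17 and 10.2) and *Csf1* (6.25 and 7.56) had a higher level than in each of the 10 other cell types, *Il4* (3.94 and 3.18) stood 2.61 and 1.32 times above mast cells, and *Fcer1a* (2.46 and 4.49) was lower than in mast cells (7.51 and 9.88).

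The annotated cells were not of 1 kind. *S100a9*, which encodes a calcium-binding protein of neutrophil cytosol, had 0 to 16 UMIs in 34 cells and 71 to 799 UMIs in the remaining 14 cells of Mir34a_F/F, and 0 to 5 UMIs in 22 cells and 192 to 1387 UMIs in 18 cells of Mir34a_Mye_KO. No cell lay between. The cells were therefore divided at 50 UMIs of *S100a9* into S100a9-low and S100a9-high cells, a division made after the values were seen. S100a9-high cells were 29.2% (17 to 44.1) and 45.0% (29.3 to 61.5) of the annotated basophils and held 37.1% and 61.0% of their UMIs. Among neutrophils 80.8% and 79.6% reached 50 UMIs of *S100a9*, whereas 0.137% and 0.892% of mast cells did.

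**Figure D1:**
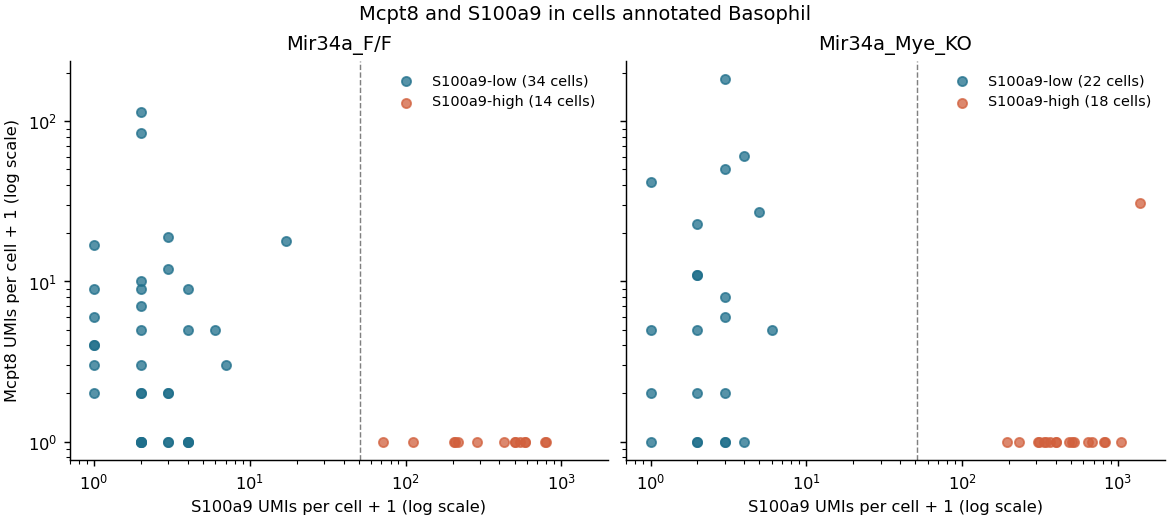
Each point is 1 cell annotated Basophil, with its UMIs of S100a9 plus 1 on the x axis and its UMIs of Mcpt8 plus 1 on the y axis, both on log scales, for Mir34a_F/F (left) and Mir34a_Mye_KO (right); the dashed line marks the division at 50 UMIs of S100a9. The 14 and 18 S100a9-high cells stand apart on the right, and 1 of them has UMIs of Mcpt8.

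With 1 exception, S100a9-high cells had no UMI of the protease that defines basophils. They held mRNAs of neutrophils, and a part of them also those of mast cells. *Mcpt8* had no UMI in any of the 14 S100a9-high cells of Mir34a_F/F and was found in 1 of the 18 of Mir34a_Mye_KO, with 30 UMIs in the deepest of all annotated basophils (39053 UMIs). *S100a8*, the partner of *S100a9*, had 30 to 578 UMIs per cell (median 307.5) and 139 to 926 (median 376.5), and *Retnlg*, a secreted protein of neutrophils, was found in 13 of 14 and 18 of 18 cells. The mast cell protease *Mcpt1* had at least 10 UMIs in 9 of 14 and 12 of 18 of the same cells, and ranged from 3 to 239 UMIs (median 21) and from 0 to 3828 (median 190). *Kit*, the stem cell factor receptor of mast cells, had a UMI in 9 and 14 and *Cpa3*, the carboxypeptidase of mast cell granules, in 9 and 15 of them. No S100a9-high cell was without a UMI of *Mcpt1*, *Mcpt2*, *Cpa3*, *Kit* and *Tpsb2*, although *Mcpt1* was also found in 59.3% and 81.6% of T cells, so single UMIs of it say little.

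The summed level of 7 neutrophil markers was 8.56 and 3.82 in S100a9-low cells, 1451 and 707 in S100a9-high cells, 9.22 and 7.57 in mast cells and 1563 and 1115 in neutrophils. These markers include *S100a9*, which set the division and alone had 802 and 356 in S100a9-high cells. The summed level of 12 mast cell markers was 13.3 and 21.8, 174 and 648, 895 and 896, and 4.47 and 6.66 in the same order of cells. A few cells carried the sum of the S100a9-high cells, since 58.2% of the UMIs of *Mcpt1* and 62.8% of those of *Mcpt2* in Mir34a_Mye_KO came from 2 cells. The neutrophil markers *Csf3r* and *Mmp9* were at 0 in S100a9-low cells of both libraries. Median depth was 4519.5 and 11970.5 UMIs in S100a9-high cells against 3358 and 7634 in S100a9-low cells. The authors removed doublets before the deposit, and whether an S100a9-high barcode held 1 cell or several was not tested. The libraries shared 96 cell barcodes, among them that of 1 basophil. Results are given below for all annotated basophils or for S100a9-low cells, as named, and a result that rests on the S100a9-high cells is marked as such.

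Without the S100a9-high cells, 3 of the 4 markers given with the cell type had their highest level in the annotated cells. The annotation was made from the same cells and the division after the values were seen, so this describes the label and does not test it. *Mcpt8* was found in 25 of 34 and 16 of 22 S100a9-low cells, with a median of 2.5 and 4.0 and a highest value of 113 and 182 UMIs. The 2 cells with the most UMIs of *Mcpt8* held 59.2% and 56.7% of them. Its level was 27.0 (24.1 to 30.0) and 24.4 (22.1 to 26.8) against 3.56 and 1.10 in mast cells, the next of the other types. *Il4* and *Csf1* also led all types. *Fcer1a*, in contrast, was detected in 11 and 15 cells at a level of 1.39 (0.807 to 2.22) and 2.23 (1.58 to 3.04), which was 5.42-fold and 4.44-fold lower than in mast cells, and its level in S100a9-high cells was 4.28 and 5.94. The cells that carry the label also held *Cd200r3*, an activating receptor found on basophils and mast cells, which was detected in 17 and 17 S100a9-low cells at 4.16 and 7.59, or 2.31-fold and 2.91-fold above mast cells. Of 8 eosinophil markers, the summed level in S100a9-low cells was 0.0815 and 0.342, with *Epx* at 0. *Lyz2*, the gene that carries Cre, had 0 and 1 UMI in S100a9-low cells. How well its mRNA was captured in other cell types was not compared here, so Cre activity cannot be read from this count.

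*Mcpt8* lies on chromosome 14 in a block of 15 protein-coding protease genes that spans 321 kb (chr14:55941451-56262334, GRCm38.p6). In this block some members had a higher level in S100a9-low basophils and others in mast cells, and *Mcpt8* and *Gzmb* were held by both. From *Cma1* through *Cma2*, *Mcpt1*, *Mcpt2* and *Mcpt9* to *Mcpt4* (chr14:56059744-56062310), all 6 genes had a higher level in mast cells. *Mcpt4* had 1 and 4 UMIs in S100a9-low cells (level 0.0815 and 0.228) against a level of 26.8 and 29.4 in mast cells. The next gene, *Mcpt8* (chr14:56082163-56085499), had 331 and 427 UMIs in S100a9-low cells, at a level of 27.0 and 24.4 against 3.56 and 1.10 in mast cells. Its neighbour *Ctsg*, the cathepsin G of neutrophil granules, had 9 and 8 UMIs in S100a9-low cells. At the far end of the block, *Gzmc* (2.61 and 1.20 against 0.193 and 0.258) and *Gzmb* (21.4 and 11.8 against 3.71 and 5.25), proteases of cytotoxic granules, were again higher in S100a9-low cells. *Gzme*, *Gzmd*, *Gzmg*, *Gzmn* and *Gzmf*, which lie between, had no UMI in S100a9-low cells. *Gzmb* was found in 28 of 34 and 18 of 22 cells, with medians of 4.0 and 7.0 UMIs, whereas few cells held the UMIs of *Gzmc*.

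Promoters of genes with a higher level in S100a9-low cells and of genes with a higher level in mast cells are shown so that they can be compared. Those of *Mcpt8* and *Mcpt4* come from within the block, and those of *Prss34* for basophils and *Cpa3* for mast cells from other chromosomes. They come from RefSeq (GRCm38.p6) and run from 250 bases before to 50 bases after the start of transcription, 5′ to 3′, at chr14:56085148-56085447 (minus strand), chr17:25298144-25298443 (plus strand), chr14:56062261-56062560 (minus strand) and chr3:20242132-20242431 (minus strand). Capitals mark matches to AGATAA or TGATAA, the sites of GATA factors, or to TTGCNCAA, that of C/EBP factors, on either strand.
Mcpt8: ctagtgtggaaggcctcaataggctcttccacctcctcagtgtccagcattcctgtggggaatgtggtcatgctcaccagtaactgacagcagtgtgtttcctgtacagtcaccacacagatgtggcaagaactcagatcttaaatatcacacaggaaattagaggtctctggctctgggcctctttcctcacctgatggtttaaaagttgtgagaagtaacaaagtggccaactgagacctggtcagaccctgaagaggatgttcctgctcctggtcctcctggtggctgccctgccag
Prss34: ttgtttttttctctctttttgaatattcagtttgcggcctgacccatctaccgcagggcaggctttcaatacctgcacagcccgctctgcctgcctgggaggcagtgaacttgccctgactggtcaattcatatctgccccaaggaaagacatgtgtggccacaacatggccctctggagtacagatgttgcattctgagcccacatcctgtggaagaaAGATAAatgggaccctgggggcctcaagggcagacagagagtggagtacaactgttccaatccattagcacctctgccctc
Mcpt4: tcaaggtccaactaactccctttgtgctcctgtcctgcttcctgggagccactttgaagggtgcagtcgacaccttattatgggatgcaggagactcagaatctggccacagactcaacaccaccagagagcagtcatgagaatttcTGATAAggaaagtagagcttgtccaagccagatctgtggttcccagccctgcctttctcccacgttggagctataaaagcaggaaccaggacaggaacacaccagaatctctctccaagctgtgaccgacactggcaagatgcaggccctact
Cpa3: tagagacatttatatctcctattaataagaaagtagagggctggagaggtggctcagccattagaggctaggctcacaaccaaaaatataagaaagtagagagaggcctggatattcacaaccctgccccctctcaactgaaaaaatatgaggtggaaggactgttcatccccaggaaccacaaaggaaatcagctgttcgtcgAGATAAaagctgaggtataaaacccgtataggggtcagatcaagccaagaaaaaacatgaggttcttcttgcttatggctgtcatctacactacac
A GATA match was present once in the windows of *Prss34* (at base -31 from the start), *Mcpt4* (-103) and *Cpa3* (-46) and not in that of *Mcpt8*. The window of *Mcpt8* lies inside the gene span given above, so bases upstream of that span were not searched. The same letters occur in 18.6% of 32851 promoters of this length, and TTGCNCAA in 2.94%. Of the other genes described here, *Cd200r3* held 2 and *Ms4a2* 3 GATA matches, *Mcpt1*, *Il13* and 1 of the 2 windows of *Il4* held 1, and *Fcer1a* and *Il6* had 1 match to each motif. *Csf1*, *Hgf*, *Hdc* and *Ccl3* had a match to neither. Windows were looked up for 18 genes and found for 15, which leaves *Osm*, *Ccl4* and *Mcpt2*.

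Of the mRNAs that reached a level of at least 1 in some cell type of both libraries, 20 of 3422 (0.584%) led in basophils, which means a level of at least 1 and at least 2-fold over the next of the 10 other types in each library. In S100a9-low cells 63 of 3466 (1.82%) did, among them all of the 20. Since the annotation was made from the same cells, these counts describe the cells and test nothing. An mRNA under a level of 1 in each of the 10 other types passed the minimum only through basophils. Counts of leading members of lists below therefore describe the members that passed. The order by the smaller fold of both libraries in S100a9-low cells was *Prss34* (67.2-fold), *Ccl4* (16.5), *Aqp9* (16.0), *Ccl3* (14.2), *Il6* (14.2), *Csf1* (9.81), *Mcpt8* (7.57), *Hgf* (6.64), *Bcar3* (5.77) and *Mboat1* (5.39), followed by *L1cam*, *Nabp1*, *Gm32401*, *Gm12840* and *Anxa11os*. This ranking of S100a9-low cells was chosen after the data were seen. Over all annotated basophils the first 8 were the same genes with smaller folds, from 42.3 for *Prss34* to 4.17 for *Hgf*, and *Ccl9* (2.78), *Tec* (2.74) and *Osm* (2.39) were among the first 15.

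*Prss34*, a tryptase of basophil granules, ranked first but rested on few cells. Its UMIs in S100a9-low cells numbered 76 and 144, of which 1 cell held 68 in Mir34a_F/F and 2 cells held 86 and 54 in Mir34a_Mye_KO. The next highest cells had 3 and 2 UMIs, and 28 of 34 and 17 of 22 cells had none. These 3 cells thus set the size of its lead.

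Secreted mediators were 5 of the first 8 leading mRNAs (*Ccl4*, *Ccl3*, *Il6*, *Csf1* and *Hgf*). Of 22 cytokines and growth factors, 12 were compared, and 4 of them led in all basophils (*Il6*, *Csf1*, *Hgf*, *Osm*) and 6 in S100a9-low cells, with *Il4* and *Il13* added, where 0.584% and 1.82% of all mRNAs compared led. *Csf1* and *Il4* are markers given with the cell type. *Csf1* and *Il13* in Mir34a_F/F and *Hgf* in Mir34a_Mye_KO passed the minimum only through basophils. *Il6*, an inflammatory cytokine that acts on epithelium through gp130, was found in 32 of 34 and 20 of 22 S100a9-low cells, from 0 to 51 (median 14) and from 0 to 110 UMIs (median 20). Its level there was 46.9 (43.2 to 50.9) and 41.9 (38.9 to 45.0), against 2.70 and 2.95 in mast cells, the next type, and 2.07 and 1.02 in S100a9-high cells. The share of cells with a UMI, 94.1% and 90.9%, stayed at 88.2% and 77.3% after each cell was thinned at random to 1000 UMIs, and was 2.07% and 4.23% in T cells before thinning.

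*Csf1*, the growth factor of macrophages, was found in 27 of 34 and 19 of 22 S100a9-low cells, with medians of 2 and 11.5 and highest values of 11 and 43 UMIs. Its level of 8.96 (7.37 to 10.8) and 18.2 (16.3 to 20.3) stood 9.81-fold over fibroblasts and 16.1-fold over mast cells, the next types of each library. *Hgf*, the ligand of Met on epithelial cells, was at 8.88 and 11, with fibroblasts next at 1.34 and 0.897, and 2 cells with 23 and 21 of its 109 UMIs in Mir34a_F/F and with 62 and 25 of its 193 in Mir34a_Mye_KO stood out. *Osm*, a cytokine of the interleukin-6 family, was at 6.93 and 9.70, and macrophages were next at 1.50 and 2.08. *Csf1*, *Hgf* and *Osm* were thus highest in basophils in both libraries, and the ranges over their cells reached down to 0 UMIs.

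The type 2 cytokines *Il4* and *Il13*, which are hallmarks of basophil and mast cell activation, were detected in fewer cells. *Il4* was found in 21 of 34 and 16 of 22 S100a9-low cells at 5.05 (3.87 to 6.48) and 7.19 (5.99 to 8.56), 3.34-fold and 2.98-fold above mast cells. *Il13* was found in 17 and 14 cells at 3.18 (2.26 to 4.34) and 5.42 (4.39 to 6.63), 4.93-fold and 3.51-fold above mast cells. In Mir34a_Mye_KO, 1 cell held 44 of the 126 UMIs of *Il4*. *Il5*, *Il3*, *Il9* and *Tslp* had no UMI in annotated basophils, and *Csf2* had 1 UMI in Mir34a_F/F and none in Mir34a_Mye_KO. Other mediators did not separate basophils from further cell types. *Areg*, an epidermal growth factor receptor ligand, was at 9.37 and 9.59 in S100a9-low cells and at 10.2 and 8.54 in T cells, and *Il1b* at 24.4 and 31.3, close to macrophages in Mir34a_F/F (23.2) and below neutrophils in Mir34a_Mye_KO (42.8). Of the 168 UMIs of *Areg* in Mir34a_Mye_KO, 2 cells held 111 and 44. *Tnf* was at 0.978 and 2.11 and did not differ from mast cells (1.32 and 2.04) beyond counting error.

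Of 20 chemokines, 19 were compared over the cell types. Of these 3 led in all basophils (*Ccl3*, *Ccl4*, *Ccl9*) and 4 in S100a9-low cells, with *Ccl6* added, beside 0.584% and 1.82% of all mRNAs. *Ccl3* and *Ccl4*, chemokines that attract monocytes and T cells, were held by nearly every S100a9-low cell. Each S100a9-low cell had at least 4 UMIs of *Ccl3*, with medians of 31.5 and 115 and highest values of 134 and 371. *Ccl4* had medians of 68.5 and 215.5 UMIs, and 1 of the 56 S100a9-low cells had none. The level of *Ccl3* was 97.8 (92.3 to 103) and 156 (150 to 162), with neutrophils next at 6.87 and 9.51, and that of *Ccl4* was 231 (223 to 240) and 273 (266 to 281), with mast cells next at 10.9 and 16.6. In S100a9-high cells *Ccl3* was at 5.79 and 5.68 and *Ccl4* at 21.2 and 15.4. *Ccl9* (13.0 and 12.9) and *Ccl6* (24.9 and 23.6), myeloid chemokines that bind Ccr1, were 4.39-fold and 7.49-fold above macrophages and 3.60-fold and 3.16-fold above neutrophils.

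Neutrophil-attracting CXC chemokines took another pattern. *Cxcl2* was found in 32 of 34 and 20 of 22 S100a9-low cells, but also in 70.6% and 81.8% of T cells, so its detection says little. Its level in S100a9-low cells was 126 (120 to 133) and 69.4 (65.5 to 73.4), and neutrophils had 126 and 138. S100a9-high cells had 120 and 87.2, so *Cxcl2* did not divide the annotated cells as *S100a9* did. *Cxcl1* had 12 and 27 UMIs in all annotated basophils and its level, 0.615 (0.318 to 1.07) and 0.600 (0.396 to 0.873), did not differ between the libraries beyond counting error. *Cxcl3* was at 1.14 and 0.856 in S100a9-low cells and at 9.79 and 5.57 in S100a9-high cells, so that 71 of 85 and 153 of 168 of its UMIs in annotated basophils came from the latter. *Ccl2*, a monocyte attractant, was likewise at 0.489 and 0 in S100a9-low cells and at 4.55 and 4.70 in S100a9-high cells, with 4.84 and 8.92 in mast cells. *Ccl11* had no UMI.

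**Figure D2:**
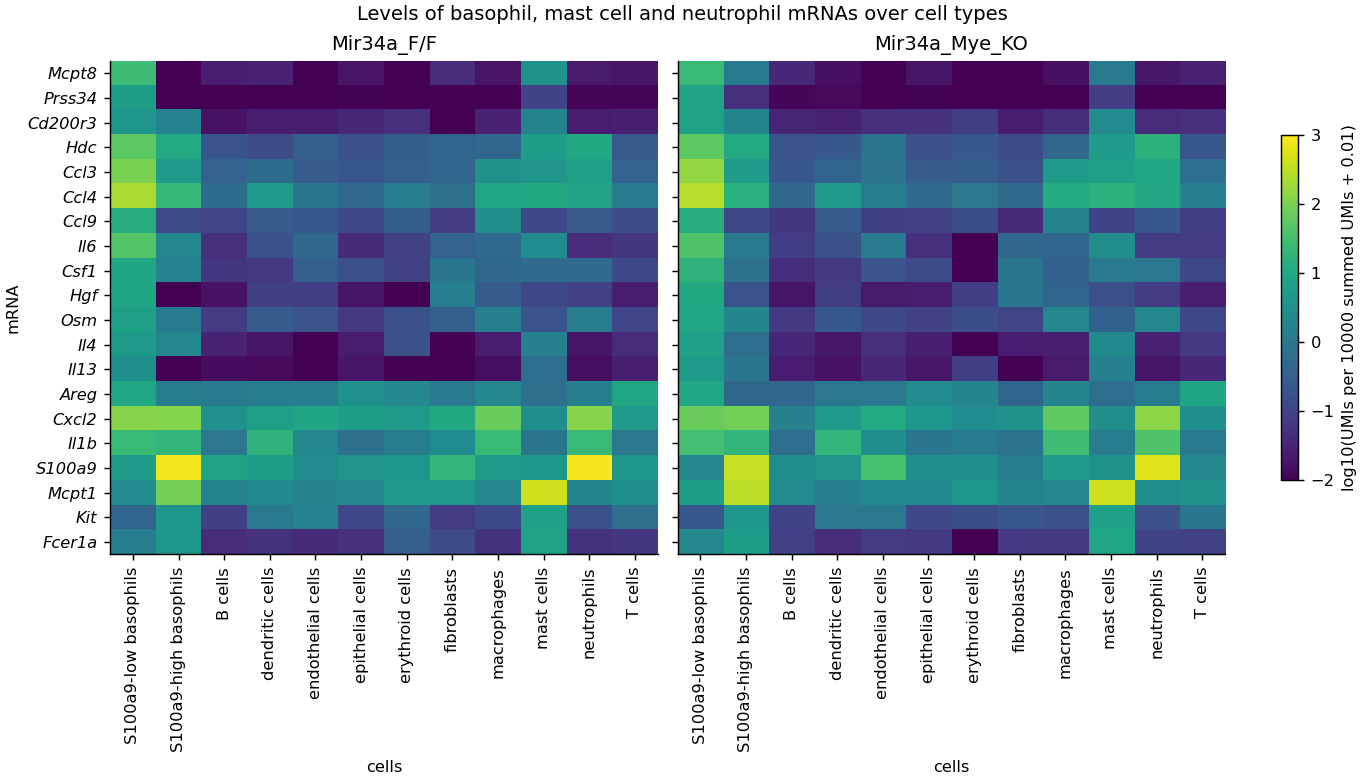
Rows are mRNAs and columns are S100a9-low basophils, S100a9-high basophils and the 10 other cell types, for Mir34a_F/F (left) and Mir34a_Mye_KO (right); the color gives log10 of the level (UMIs per 10000 summed UMIs) plus 0.01. The first column is the brightest for Mcpt8, Il6, Ccl3 and Ccl4 in both libraries, while the second column is bright for S100a9 and Mcpt1.

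**Figure D3:**
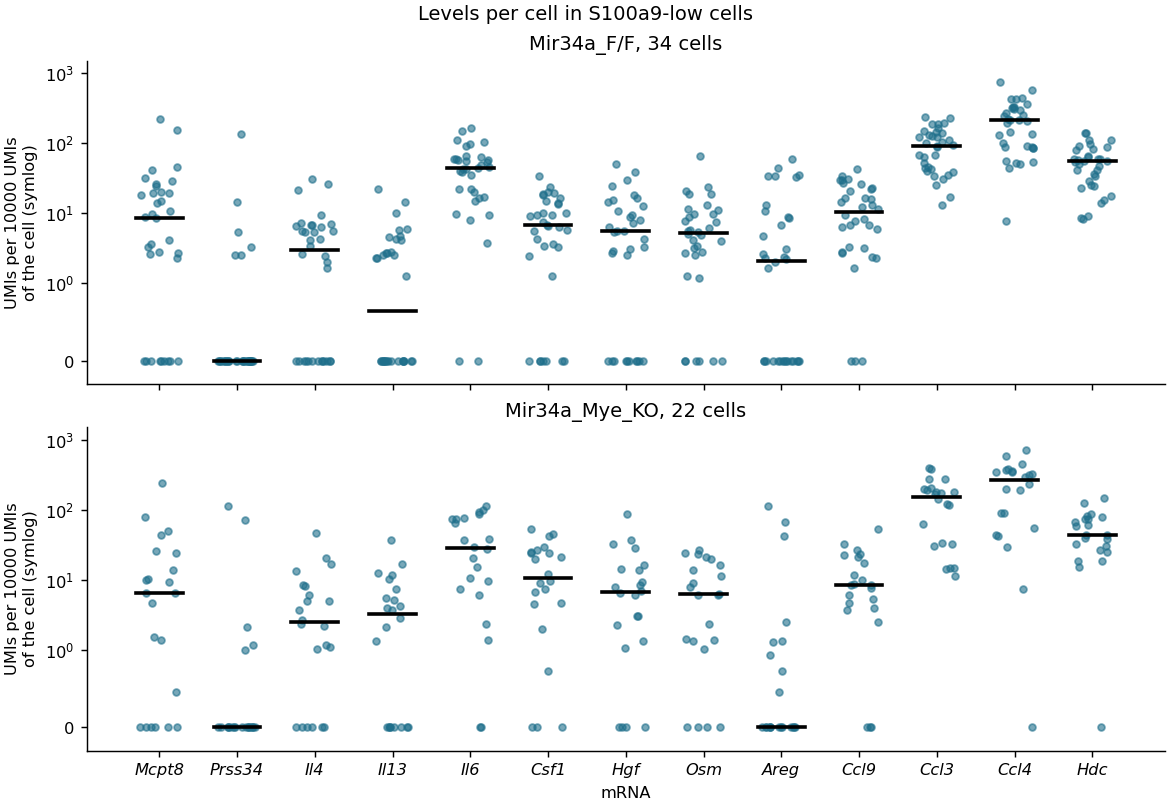
Each point is 1 S100a9-low cell (34 of Mir34a_F/F above, 22 of Mir34a_Mye_KO below), with UMIs per 10000 UMIs of the cell on a symmetric log axis that is linear near 0; bars are medians over cells. Ccl3 lies above 0 in all 56 cells, whereas Prss34 is at 0 in most cells and high in 3.

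Against mast cells, which like basophils bind IgE and store histamine, all annotated basophils had 288 of 2799 mRNAs (10.3%) at least 2-fold higher and 129 (4.61%) at least 2-fold lower in both libraries. For S100a9-low cells these were 324 of 2778 (11.7%) higher and 278 (10.0%) lower. The comparison took mRNAs whose level averaged at least 0.5 over both types and libraries. An mRNA near 0 in mast cells passed this minimum only through its level in basophils and then had to be higher, and the reverse holds for mRNAs near 0 in basophils, so the counts of lists below describe the members that passed. With the S100a9-high cells included, 6 of the 10 mRNAs with the largest fold over mast cells were *Rdh12*, *G0s2*, *S100a9*, *Stfa2l1*, *S100a8* and *Wfdc21*, and *G0s2*, for example, had 0 and 3 of its 139 and 373 UMIs in S100a9-low cells. Without them the list was led by *4933432I03Rik*, *Acod1*, *Amigo2*, *Ccl9*, *Ccl6*, *Aqp9*, *Hgf*, *Prss34*, *Irak3* and *C5ar1*. *Acod1*, the enzyme that makes itaconate, was found in 34 of 34 and 20 of 22 S100a9-low cells at 35.9 and 45.2, against 0.169 and 0.323 in mast cells. Neutrophils had 23.3 and 48.1, so *Acod1* did not lead in basophils. *Amigo2* had 14 and 17 UMIs in S100a9-low cells and 1 and 2 in mast cells, which gave log2 ratios of 8.54 (5.82 to 13.94) and 8.74 (6.66 to 11.89) from the UMIs as counted, while its rank was taken with mast cells set to 3 UMIs.

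Mast cell markers were low in S100a9-low cells. Of 12 members 11 were compared, of which 10 were at least 2-fold lower than in mast cells in both libraries and 0 were higher, beside 10.0% and 11.7% of all mRNAs compared. *Mcpt1* was at 2.53 (1.72 to 3.59) and 5.99 (4.90 to 7.25), against 443 and 407 in mast cells, and *Mcpt2* at 1.63 and 4.74 against 335 and 344. *Mcpt1* had a UMI in 58.8% and 77.3% of S100a9-low cells and in 59.3% and 81.6% of T cells. After thinning to 1000 UMIs these shares were 20.6% and 36.4% against 25.2% and 24.0%. *Kit* had 5 and 4 UMIs in S100a9-low cells (0.407 and 0.228 against 7.28 and 7.32), and *Tph1*, the enzyme of serotonin synthesis, 0 and 1 against levels of 6.97 and 6.87. *Cpa3* kept 3.34 (2.40 to 4.53) and 3.25 (2.46 to 4.21), 8.77-fold and 12.2-fold under mast cells. Of the mRNAs outside the lists, *Mctp1*, *Ctla2a*, *Hs6st2* and *Sox5* were among the 10 with the largest fold in this direction. With the S100a9-high cells included, *Mcpt4* rose to a level of 2.51 and 4.93, which was 10.7-fold and 5.97-fold under mast cells.

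Granule proteases therefore went both ways. Of 18 granule proteases 14 were compared, of which 4 (*Mcpt8*, *Prss34*, *Gzmb*, *Gzmc*) were at least 2-fold higher and 10 at least 2-fold lower in S100a9-low cells than in mast cells, beside 11.7% and 10.0% of all mRNAs. *Gzma*, *Elane* and *Prtn3* had no UMI in annotated basophils.

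The chains of the IgE receptor were shared unequally. *Fcer1g*, the signalling chain that other receptors use as well, was at 11.2 and 11 in S100a9-low cells and at 8.29 and 8.52 in mast cells. *Ms4a2*, the beta chain, was at 2.12 (1.38 to 3.10) and 2.05 (1.44 to 2.84), against 3.10 and 3.82. The IgE-binding chain *Fcer1a* was the lowest of them relative to mast cells, by log2 ratios of -2.44 (-3.22 to -1.76) and -2.15 (-2.64 to -1.70). Of 16 mRNAs of the receptor and its signalling 13 were compared, of which 0 were at least 2-fold higher and 5 lower (*Fcer1a*, *Lyn*, *Lat*, *Inpp5d*, *Grap2*), where 11.7% and 10.0% of all mRNAs were. *Lyn*, the kinase that phosphorylates the receptor, was at 1.06 and 2.68, 4.88-fold and 2.10-fold below mast cells. *Tec*, a kinase outside that list that led in basophils, was at 7.90 and 12.2.

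Among the receptors for cytokines, S100a9-low cells had more mRNA than mast cells for chains of the interleukin-18 receptor and for the shared chain *Csf2rb*, and less for the interleukin-33 receptor. *Il18rap* was at 4.40 and 3.31, with T cells next at 0.910 and 1.53, and *Il18r1* at 2.04 and 2.45 against 0.494 and 0.811 in mast cells. *Csf2rb*, the chain shared by the receptors of interleukin-3, interleukin-5 and GM-CSF, was at 8.39 and 12.7, 2.64-fold and 3.31-fold above mast cells, whereas *Il3ra* had 10 and 15 UMIs. *Il1rl1*, the interleukin-33 receptor, was at 2.28 (1.52 to 3.30) and 1.08 (0.653 to 1.69), 2.78-fold and 7.13-fold below. Of 31 cytokine receptors 15 were compared, of which 4 were higher and 3 lower, against 11.7% and 10.0% of all mRNAs. The receptor *Il1rap* was at least 2-fold above mast cells only with the S100a9-high cells included (1.49 and 2.09), and stood at 0.733 and 0.571 without them, where mast cells had 0.424 and 0.367.

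Receptors for chemoattractants and adhesion molecules guide circulating leukocytes into tissue. Of 19 chemoattractant receptors, 13 were below the minimum level, and of the 6 compared 5 were higher (*Ccr1*, *Ccr2*, *Cxcr4*, *C3ar1*, *C5ar1*) and *Cx3cr1* was lower, beside 11.7% and 10.0% of all mRNAs. *C5ar1*, the receptor of the anaphylatoxin C5a, was at 2.53 (1.72 to 3.59) and 3.54 (2.71 to 4.54), 35.8-fold and 74.0-fold above mast cells. Of 15 adhesion molecules 11 were compared, of which 7 were higher and 1 lower, with the same shares over all mRNAs (11.7% and 10.0%). Among the 7 were *Itgb2* (3.18 and 2.45 against 0.212 and 0.174), the beta chain of the leukocyte integrins, *Itgam* (1.14 and 2.23 against 0.132 and 0.0922), its partner in Mac-1, and *Itga2* (1.39 and 1.03 against 0.203 and 0.0956), which is used to identify basophils by antibody. *Itgae*, an integrin chain that binds epithelial cadherin, was the lower one. Over all cell types, 11 of the chemoattractant receptors and 14 of the adhesion molecules were compared. Of these 0 led in S100a9-low cells, where 1.82% of all mRNAs did.

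Of the enzymes for histamine and lipid mediators, *Hdc*, which makes histamine, was found in 34 of 34 and 21 of 22 S100a9-low cells, with medians of 17 and 35 UMIs. Its level of 55.2 (51.2 to 59.6) and 55.8 (52.3 to 59.4) was 9.24-fold and 9.50-fold that of mast cells, and 5.14-fold and 3.44-fold that of neutrophils, the next type. *Ptgs2*, the inducible cyclooxygenase, was at 6.76 and 30.8 against 0.896 and 0.761 in mast cells, and macrophages had 7.99 and 9.07. *Hpgds* and *Tbxas1*, enzymes of prostaglandin D2 and thromboxane synthesis, were lower than in mast cells. *Cyp11a1*, a steroidogenic enzyme, was at 15.2 and 15.9, 2.02-fold and 2.41-fold above mast cells.

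Of 20 transcription factors 12 were compared, of which 3 were higher (*Cebpa*, *Cebpb*, *Nfil3*) and 2 lower (*Mitf*, *Ikzf1*) than in mast cells, beside 11.7% and 10.0% of all mRNAs compared. *Cebpa*, which is needed for basophils, led in S100a9-low cells with 17 and 24 UMIs (1.39 and 1.37), 17.4-fold and 25.6-fold above mast cells, and macrophages were next at 0.691 and 0.659. *Cebpb* was at 13.5 and 12.9 against 1.41 and 1.01. *Mitf*, the factor of mast cells, had 0 and 1 UMI in S100a9-low cells, where mast cells had a level of 1.27 and 1.75. *Gata2*, which both cells use, was 2.00-fold above mast cells in Mir34a_F/F (8.96 against 4.47) and level with them in Mir34a_Mye_KO (5.82 against 6.00).

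**Figure D4:**
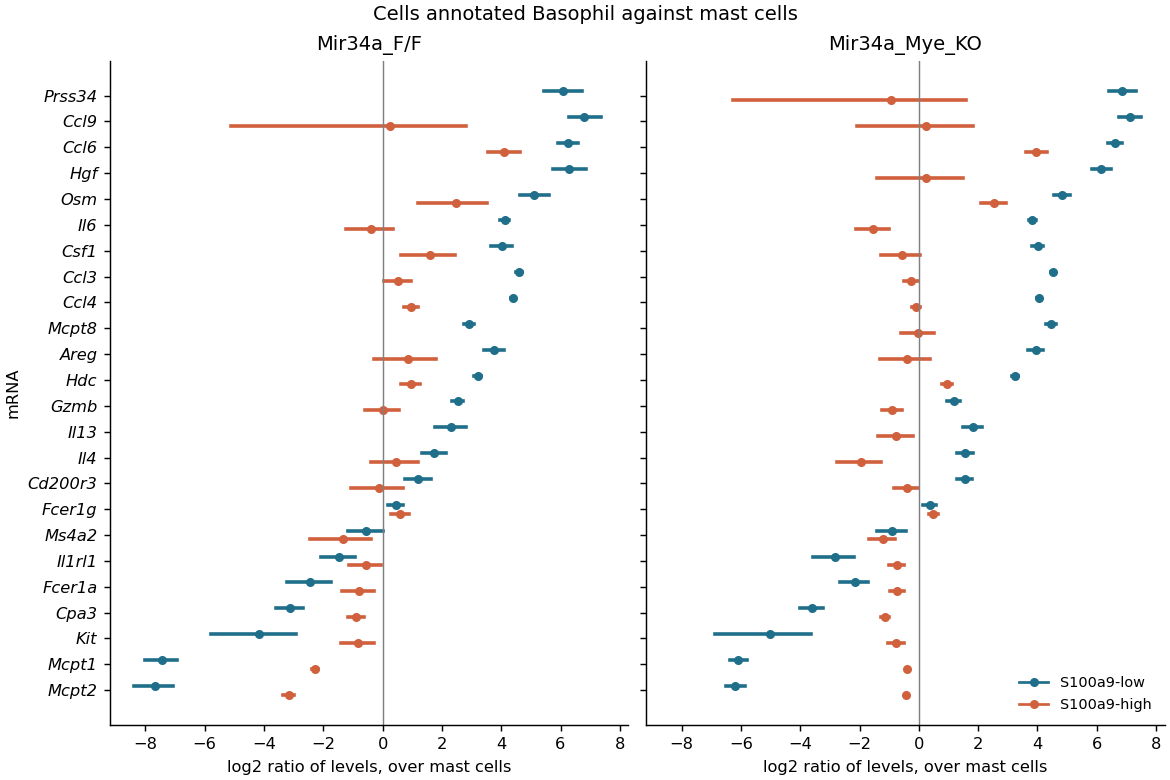
Points are log2 ratios of the level in S100a9-low cells (blue) and in S100a9-high cells (orange) over mast cells, and bars are 95% intervals for counting error, for Mir34a_F/F (left) and Mir34a_Mye_KO (right); mRNAs without a UMI in the cells have no point. S100a9-low cells have Mcpt2 at -7.68 and -6.18 and Ccl9 at 6.80 and 7.11, on opposite sides of 0.

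Within S100a9-low cells, the 9 and 6 cells without a UMI of *Mcpt8* were shallower than the 25 and 16 with one. Their median depth was 2295 and 2741.5 UMIs, against 3647 and 8192, and the median share of mitochondrial UMIs was 1.26% and 5.89%, against 1.43% and 1.84%. Single cells without *Mcpt8* reached 20.3% and 18.7% in Mir34a_F/F and 52.4% in Mir34a_Mye_KO. Cells with *Mcpt8* reached up to 17.8% and 33.4%, so high shares occurred on both sides. The summed level of the mitochondrial mRNA *mt-Co1* was 244 and 517 without *Mcpt8* against 83.1 and 137 with it. The part of depth and RNA quality in the following values was not tested. *Ccl3* was found in 9 of 9 and 6 of 6, *Il6* in 8 of 9 and 4 of 6 and *Hdc* stood at 37.8 and 25.1 (59.9 and 62.8 in cells with *Mcpt8*). In Mir34a_Mye_KO, the 6 cells without *Mcpt8* held *Mcpt1* at 20.5 and *Mcpt2* at 17.7, against 2.67 and 1.75 in the others. However, 1 of the 6 cells held 64 of their 67 UMIs of *Mcpt1* and 49 of their 58 UMIs of *Mcpt2*. This cell thus set both levels, and it held 64 of the 105 UMIs of *Mcpt1* in all S100a9-low cells of the library. *Il4* and *Il13* were detected together in 12 of 25 and 9 of 16 S100a9-low cells with *Mcpt8* and in 1 of 9 and 3 of 6 without it, and detection of both also depends on depth.

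*Mcpt8* was also present outside the annotated basophils. At least 3 UMIs of it were found in 17 and 14 annotated basophils, in 33 and 42 mast cells, in 1 and 2 B cells and in 0 and 1 T cell. These mast cells were deep, with medians of 13445 and 23587 UMIs against 3699 and 9002 for the basophils with 3 or more. Chosen by *Mcpt8*, they had a level of it of 25.5 and 9.36, against 27.0 and 24.4 in S100a9-low cells. Their level of *Prss34* was 0.0456 and 0.115, against 6.19 and 8.22 in S100a9-low cells, where few cells set it. These mast cells held *Mcpt1* at 684 and 593 and *Kit* at 7.48 and 7.03, against 406 and 385 and 7.26 and 7.36 in the other mast cells. The basophil mediators *Il6* (2.71 and 4.27), *Csf1* (0.593 and 1.17) and *Ccl3* (3.05 and 5.79) were below the levels of the S100a9-low cells given above. *Hgf* was at 0.387 and 0.804 in mast cells with 3 or more UMIs of *Mcpt8* and at 0.0710 and 0.0753 in the others.

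Between the libraries, mRNAs with at least 50 UMIs in the basophils of both together were compared. All annotated basophils had 102 of 1769 mRNAs (5.77%) at least 2-fold higher and 70 (3.96%) at least 2-fold lower in Mir34a_Mye_KO. In S100a9-low cells 56 of 806 (6.95%) were higher and 38 (4.71%) lower. The larger share of S100a9-high cells in Mir34a_Mye_KO went into the first comparison. The largest differences over all annotated basophils were higher *Mcpt2*, *Cma1*, *Dock4*, *Mbd5* and *Tlr2* and lower *Cks2*, *Klf4*, *Cldn7*, *Foxo1* and *Clca3b* in Mir34a_Mye_KO. *Mcpt2*, at 14.9 and 159, had 7048 of its 7131 UMIs in Mir34a_Mye_KO in S100a9-high cells, and 3101 of them in 1 cell, and *Cma1* (0.922 and 8.03), *Dock4* (0.256 and 2.18), *Mbd5* (0.154 and 1.09) and *Tlr2* (0.205 and 1.18) likewise had 359 of 361, 89 of 98, 40 of 49 and 51 of 53 UMIs there. In mast cells, *Mcpt2* differed by a log2 ratio of 0.04.

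Of the 4 markers given with the cell type, *Mcpt8* was lower in Mir34a_Mye_KO by a log2 ratio of -0.74 (-0.95 to -0.53) over all annotated basophils and by -0.15 (-0.36 to 0.07) in S100a9-low cells, where the interval includes 0. In mast cells the ratio was -1.69 (-1.81 to -1.56), but 33 and 42 of the 732 and 785 mast cells held 1121 and 896 of the 1160 and 971 UMIs there, and the share of mast cells with a UMI was 8.61% and 13.1%. *Csf1* went from 0.27 (-0.03 to 0.58) over all to 1.02 (0.71 to 1.35) in S100a9-low cells, and was 1.04 (0.81 to 1.28) in mast cells. *Il4* was at -0.31 (-0.72 to 0.11), 0.51 (0.06 to 0.97) and 0.68 (0.54 to 0.82) in the same order, and 1 S100a9-low cell of Mir34a_Mye_KO held 44 of its 126 UMIs there. *Fcer1a* was at 0.87 (0.41 to 1.35), 0.68 (-0.17 to 1.60) and 0.40 (0.33 to 0.46). For 3 of the 4 markers the ratio in mast cells lay within the interval of the S100a9-low cells, and for *Mcpt8* it did not. These intervals leave out the variation between cells, and few S100a9-low cells held most of the UMIs of *Mcpt8*, so this is a description and no test.

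The mediators that led in basophils moved between the libraries by less than 2-fold in S100a9-low cells, except *Csf1*. *Ccl3* had a log2 ratio of 0.01 (-0.08 to 0.11) over all annotated basophils and 0.67 (0.57 to 0.77) in S100a9-low cells, and *Ccl4* -0.40 (-0.47 to -0.34) and 0.24 (0.17 to 0.31). *Hdc* (0.01, -0.13 to 0.16), *Ccl6* (-0.08, -0.29 to 0.14), *Ccl9* (-0.02, -0.31 to 0.29) and *Hgf* (0.31, -0.04 to 0.66) of S100a9-low cells had intervals that include 0, and so did *Areg* (0.03, -0.32 to 0.39). *Il6*, at 46.9 and 41.9, was lower in Mir34a_Mye_KO by -0.84 (-0.99 to -0.68) over all annotated basophils and by -0.16 (-0.32 to -0.00) in S100a9-low cells. For *Ccl3*, *Ccl4* and *Il6* the ratio thus differed between both sets of cells, and the S100a9-high cells held less of these mRNAs.

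In S100a9-low cells, *Ptgs2* had the largest difference among the mRNAs of the fixed lists. It was found in 19 of 34 cells with a median of 1 UMI (0 to 23) in Mir34a_F/F and in 20 of 22 cells with a median of 18 UMIs (0 to 72) in Mir34a_Mye_KO, and the ranges overlap. The levels of 6.76 (5.39 to 8.38) and 30.8 (28.2 to 33.5) gave a log2 ratio of 2.19 (1.85 to 2.54), and 1.26 (0.97 to 1.56) over all annotated basophils, against -0.24 (-0.44 to -0.03) in mast cells. Other cells went either way, with levels of 4.34 and 8.32 in neutrophils, 0.456 and 2.06 in the mast cells with 3 or more UMIs of *Mcpt8*, 4.41 and 3.42 in S100a9-high cells and 4.24 and 1.28 in fibroblasts. *Faah*, *Slc38a1*, *Kctd12* and *Chka* were the other mRNAs with the largest ratios upward (4.80-fold, 4.64-fold, 4.23-fold and 4.10-fold). *Chka*, choline kinase, was at 4.32 (3.23 to 5.65) and 17.7 (15.8 to 19.8), and was found in 19 and 17 cells.

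*Spp1*, *Olr1*, *Ahnak*, *Cldn7* and *Cks2* were lowest in Mir34a_Mye_KO relative to Mir34a_F/F. *Spp1*, osteopontin, was at 5.54 and 0.457, but 45 of its 68 UMIs in Mir34a_F/F came from 1 cell. *Cks2*, a subunit of cyclin-dependent kinases, was at 19.4 (17 to 22.0) and 5.71 (4.64 to 6.94), found in 27 and 16 cells. *Cldn7*, a claudin of epithelial junctions, was at 6.52 and 1.88, and the summed level of 6 epithelial markers that include it was 35.7 and 19.5 in S100a9-low cells, 26.6 and 13.9 in mast cells and 40.8 and 22.7 in neutrophils. The sum was lower in Mir34a_Mye_KO in each of these 3 sets of cells, and its part in the ratio of *Cldn7* was not tested.

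*Gzmc* of S100a9-low cells was lower in Mir34a_Mye_KO by a log2 ratio of -1.12 (-1.99 to -0.28), with 32 UMIs in 4 cells and 21 UMIs in 5 cells. *Gzmb* was lower in Mir34a_Mye_KO by -0.86 (-1.13 to -0.59) in S100a9-low cells and higher by 0.50 (0.41 to 0.59) in mast cells, and *Cxcl2* was lower by -0.86 (-0.97 to -0.75) in S100a9-low cells, against -0.08 (-0.19 to 0.02) in mast cells. *Gata2* was lower by -0.62 (-1.03 to -0.22) and *Alox5ap*, needed for leukotriene synthesis, by -0.69 (-1.06 to -0.33). With 1 library of pooled mice per genotype, none of these differences can be told apart from a difference between the mice, the libraries or their depth, which was larger in Mir34a_Mye_KO.

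**Figure D5:**
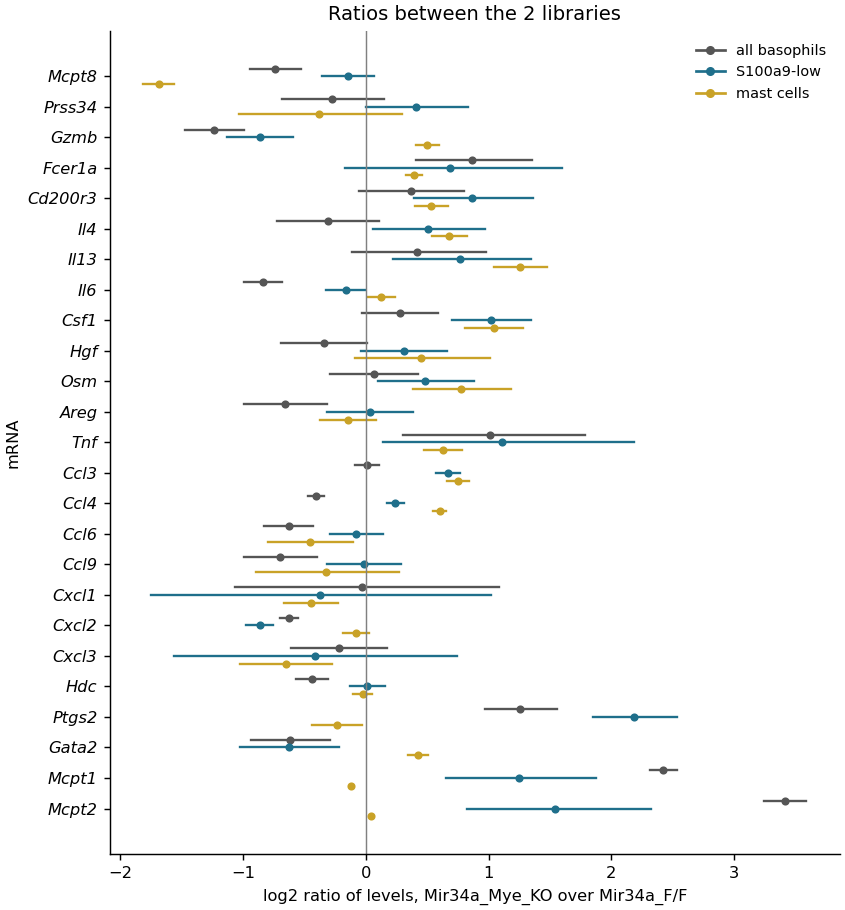
Points are log2 ratios of the level in Mir34a_Mye_KO over Mir34a_F/F in all annotated basophils (grey), S100a9-low cells (blue) and mast cells (gold), and bars are 95% intervals for counting error. Ptgs2 in S100a9-low cells lies at 2.19, Mcpt1 and Mcpt2 in all annotated basophils at 2.42 and 3.42, and Mcpt8 moves from -0.74 to -0.15 when the S100a9-high cells are left out.

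miR-34a lowers the mRNAs that its seed pairs with, which is why its known targets were looked at in basophils. The mature miR-34a-5p (RefSeq, chr4:150068473-150068494 on the plus strand of GRCm38.p6) is shown with its seed, bases 2 to 8, in capitals.
mmu-miR-34a-5p: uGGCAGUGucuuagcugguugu
Of 21 mRNAs described as targets in other work, 8 had enough UMIs to be compared over all annotated basophils and 0 of them differed 2-fold in either direction, beside 5.77% and 3.96% of all mRNAs compared. Their median log2 ratio was 0.45, beside -0.02 for all mRNAs compared, with the S100a9-high cells included. The list holds *Csf1r*, *Axl*, *Foxp1*, *Ccr1*, *Nampt*, *Tgfbr2*, *Mmp9*, *Notch2* and *Cd44*. The paper reports these as raised in macrophages or neutrophils of the same Mir34a_Mye_KO library, so the median is a description and no independent test. In S100a9-low cells 5 of the 21 were compared and 1, *Cd274*, was higher and 0 lower, beside 6.95% and 4.71% of all mRNAs compared. *Cd274* was at 0.978 (0.505 to 1.71) and 2.34 (1.68 to 3.17) on 12 and 41 UMIs, but 30 of the 41 came from 1 cell, and it was found in 9 and 8 cells. The median of these 5 was 0.20, beside -0.06. *Notch2* (3.26 and 3.42) and *Ccr1* (1.22 and 2.00) had intervals that include 0.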

How the data were processed

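Single-cell mRNA of AOM/DSS tumors was measured in 1 library per genotype. The authors aligned reads with Cell Ranger 7.2.0 to mm10, filtered cells on expressed mRNAs and mitochondrial content, removed doublets with Scrublet and deposited natural log values (1 plus UMIs per 10000 UMIs of the cell). Undoing the natural log gave whole UMIs for 32291 genes and 38883 cells, with a largest deviation of 1.5e-10. Deposited cell types were used as given. The study states a limit of 25% mitochondrial RNA, yet deposited cells reach 69.9% and basophils 52.4%. None were removed, except in the alternative that keeps cells under 10%.

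UMIs were summed per cell type and library. Ratios of levels carry exact conditional binomial intervals, levels exact Poisson and shares exact binomial intervals. A level under 3 UMIs in a denominator was set to 3 UMIs in counts and folds. Single mRNAs were named from 30 fixed lists of 320 genes, and as the first 15 leading, the first 10 in each direction against mast cells and the first 5 in each direction between libraries, if found in 25% of the cells of a library. Members and lists were chosen with earlier results of these data known. The interval of ratios and a 2-fold cut were tried on simulated Poisson counts without variation between cells. The calls with minimum levels were not simulated. Alternatives covered other denominators, thinning to 1000 UMIs, a pseudocount of 1, a 4-fold threshold, doubled minimum levels, means over cells and cell subsets. Python 3.11.15, numpy 2.4.6, scipy 1.17.1 and pandas 2.3.3 were used.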

Additional observations from a re-analysis of the deposited data

How the results depend on the processing

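No paired analysis was possible because each genotype had 1 library, while the ratios over mast cells were taken within each library. Basophils summed to 195215 and 449806 UMIs, and the settings with S100a9-low cells were chosen after seeing the data. The cause of the shifts below was not tested. The share of basophils became 0.552% and 0.459% among cells other than epithelial cells, 0.328% and 0.311% among cells with at least 500 mRNAs and under 10% mitochondrial UMIs, and 0.167% and 0.118% with S100a9-low cells alone. Cells with at least 3 UMIs of *Mcpt8*, whatever their annotation, were 0.251% (0.187 to 0.330) and 0.318% (0.242 to 0.410), the opposite order of the libraries, and the intervals overlap. Of these 51 and 59 cells, 33 and 42 were annotated as mast cells, so this is not a share of basophils alone. A fixed number of UMIs also depends on depth, and its part was not tested. Thinning to 1000 UMIs lowered the share of basophils with *S100a9* from 85.4% and 90.0% to 58.3% and 57.5%, and with *Mcpt1* from 70.8% and 82.5% to 37.5% and 52.5%.

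The 20 leading mRNAs (0.584% of 3422) became 55 (1.59% of 3466) in basophils with *Mcpt8* and 63 (1.82% of 3466) in S100a9-low cells. They became 11 (0.321% of 3422) with a pseudocount of 1 and 8 (0.234% of 3422) at 4-fold. The 288 mRNAs of 2799 above mast cells (10.3%) became 186 of 1399 compared (13.3%) at a doubled minimum. Of 2799 they became 134 (4.79%) with the pseudocount and 137 (4.89%) at 4-fold. The 129 below (4.61% of 2799) became 220 (7.65% of 2875) as means over cells, 245 (8.79% of 2787) in basophils with *Mcpt8* and 278 (10.0% of 2778) in S100a9-low cells. At a doubled minimum they became 66 (4.72% of 1399), so the count was lower and the share near that of the main setting. With the pseudocount they became 23 (0.822% of 2799) and at 4-fold 8 (0.286% of 2799). Between libraries, the 102 mRNAs higher in Mir34a_Mye_KO became 17 after thinning, 62 at a doubled minimum, 32 with the pseudocount and 56 in S100a9-low cells. These rest on 250, 911, 1769 and 806 mRNAs compared in place of 1769, so that the called shares were 6.80%, 6.81%, 1.81% and 6.95% beside 5.77%. The 70 lower became 45 in cells with at least 500 mRNAs and under 10% mitochondrial UMIs, 44 in basophils with *Mcpt8*, 8 after thinning, 29 at a doubled minimum, 17 with the pseudocount and 38 in S100a9-low cells. Of the 1467, 771, 250, 911, 1769 and 806 mRNAs compared these were 3.07%, 5.71%, 3.20%, 3.18%, 0.961% and 4.71%, beside 3.96%. In basophils with *Mcpt8* and in S100a9-low cells the count was thus lower and the share higher.

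Of 589 log2 ratios of single mRNAs over mast cells, 249 stayed within the counting interval of the value over all annotated basophils, 336 left it and 4 reversed. *S100a9* became -0.76 in Mir34a_Mye_KO in S100a9-low cells, and *S100a8* -0.58 in basophils with *Mcpt8* and -0.68 in S100a9-low cells of Mir34a_F/F and -1.59 in those of Mir34a_Mye_KO. Of 278 ratios between libraries, 169 stayed within it, 108 left it and 1 reversed, *Stfa2l1*, to 0.51 in basophils with *Mcpt8*. A further 51 gave no value, since fewer than 3 UMIs left the direction unset.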

Other observations

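Further gene groups of S100a9-low cells were compared with mast cells within each library, with no test since the annotation was made from the same cells. Of 13 immediate early and feedback mRNAs, which are induced within minutes of a stimulus and also by tissue dissociation, 4 were at least 2-fold higher in both libraries and 0 lower, beside 11.7% and 10.0% of all mRNAs compared. *Nfkbia*, the inhibitor of NF-kB, was at 18.3 (15.9 to 20.8) and 15.6 (13.8 to 17.5), against 4.83 and 5.80 in mast cells. *Tnfaip3*, a deubiquitinase that restrains the same pathway, was at 12.1 and 9.36 against 2.77 and 3.38, and *Dusp1* and *Zfp36* were the other members that were higher. None of the 4 was 2-fold above the next cell type in both libraries.

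*Cd69*, an early activation marker of leukocytes, led in S100a9-low cells at 7.50 (6.04 to 9.19) and 10.6 (9.09 to 12.2), and was found in 23 of 34 and 16 of 22 cells. Mast cells were next in Mir34a_F/F at 3.07 and T cells in Mir34a_Mye_KO at 3.88. *Cd63*, a membrane protein of granules, was lower than in mast cells (6.03 and 5.36 against 18.9 and 21.0). The inhibitory receptor *Lilrb4a* was at 11.1 and 12.7 against 4.72 and 4.37. *Pim1*, a kinase induced through STAT5, was at 19.6 and 14.4 against 4.75 and 5.52, whereas *Bcl2* had 3 and 4 UMIs and was 3.09-fold and 5.23-fold below mast cells.

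*Il7r* was at 2.04 (1.32 to 3.01) and 1.31 (0.832 to 1.97), against 0.264 and 0.179 in mast cells and 3.85 and 4.29 in T cells. *H2-Ab1*, a chain of MHC class II, was at 1.14 and 2.28, where dendritic cells had 40.2 and 43.7 and T cells, which do not make it in mice, 1.16 and 1.31. The proliferation marker *Mki67* had 14 and 9 UMIs in 10 and 7 cells and a level of 1.14 (0.624 to 1.91) and 0.514 (0.235 to 0.975), which did not differ from mast cells (0.706 and 0.745) beyond counting error.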
